A study of Mus musculus with 36 samples.

Results

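The genes described here encode the proteins of the cytosolic ribosome, measured in C2C12 myotubes, the multinucleate cells that this mouse myoblast line forms when it differentiates. They were taken by name and annotation only: protein-coding genes whose symbols begin with Rpl or Rps followed by a digit, the stalk genes and *Rpsa*, without the Rps6k kinases. Of 94 such genes, 83 reached 1 RPM (a read count scaled to the total count of its library) in 12 or more of the 36 libraries, and these 83 are among the 13995 genes that passed that filter. All groups were C2C12 myotubes that received a locked nucleic acid (LNA), either against the long non-coding RNA *Tug1* (*Tug1* KD) or a negative control, and were taken on differentiation day 4. Rest wells had no stimulation. The other wells had electrical pulse stimulation (EPS) for 3 h, with pulses of 2 ms at 13 V and 66 Hz, and cells were collected at its end (EPS 0h) or 3 h later (EPS 3h). This gave 6 groups of 6 libraries, each from 1 well, so that the replicates are wells of 1 cell line in 2 experiments. Libraries numbered 1 to 3 are called the first set and those numbered 4 to 6 the second set, since the libraries parted between these numbers. Which experiment a number belongs to is not named in the sources used here. Since wells of 1 line were compared, p-values measure the spread between these wells.

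A ribosome joins a small subunit, which reads the mRNA, to a large subunit, which forms the peptide bonds, and each core protein is needed in about equal numbers. Most mRNAs for these proteins begin with a C followed by a run of pyrimidines, the TOP motif, which ties their translation to the kinase complex mTORC1. In skeletal muscle the supply of ribosomes is one determinant of how much protein the tissue can make after loading. Counts of mRNA as used here do not measure translation.

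The 83 genes hold 42 of the large subunit, 31 of the small subunit and the 3 stalk genes, which together make 76 core genes. The other 7 are 5 paralogs or retrogenes (*Rpl22l1*, *Rps27l*, *Rps27rt*, *Rpl9-ps6* and *Rps18-ps5*) and 2 genes, *Rpl7l1* and *Rps19bp1*, whose products are not counted among the proteins of the subunits. The 11 genes under the filter were *Rpl24*, *Rpl36al*, *Rpl3l*, *Rpl10l*, *Rpl39l*, *Rpl10-ps3*, *Rpl36-ps4*, *Rpl36a-ps1*, *Rplp2-ps1*, *Rps18-ps6* and *Rps23rg1*. The symbols do not capture *Fau*, which encodes a ribosomal protein fused to a ubiquitin-like protein, or *Rack1*, which encodes a scaffold on the small subunit.

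The start of transcription is shown for the 12 of 19 members called in at least 1 comparison that have an entry, because the TOP motif lies there. The windows are 30 bases from the RefSeq promoters of GRCm38.p6, on the transcribed strand, with the annotated start at the base after the middle. Capitals mark the longest run of C and T that reaches within 5 bases of the start. *Rps15a* is at chr7:118116133-118116162 (minus strand), *Rps6* at chr4:86857353-86857382 (minus), *Rps26* at chr10:128626492-128626521 (minus), *Rpl22l1* at chr3:28805493-28805522 (plus), *Rpl10a* at chr17:28328456-28328485 (plus), *Rpl4* at chr9:64173372-64173401 (plus), *Rps12* at chr10:23787195-23787224 (minus), *Rps13* at chr7:116334176-116334205 (minus), *Rpl5* at chr5:107900513-107900542 (plus), *Rpl10* at chrX:74270801-74270830 (plus), *Rps25* at chr9:44407699-44407728 (plus) and *Rps19bp1* at chr15:80264292-80264321 (minus).
Rps15a: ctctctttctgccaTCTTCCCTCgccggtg
Rps6: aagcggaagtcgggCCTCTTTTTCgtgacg
Rps26: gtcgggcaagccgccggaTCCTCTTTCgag
Rpl22l1: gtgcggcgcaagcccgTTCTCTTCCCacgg
Rpl10a: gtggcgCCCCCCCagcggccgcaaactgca
Rpl4: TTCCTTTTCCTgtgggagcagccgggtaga
Rps12: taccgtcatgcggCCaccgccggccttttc
Rps13: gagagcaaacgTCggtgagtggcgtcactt
Rpl5: tctcacgtcgCTTgcgtgctggtggtgcta
Rpl10: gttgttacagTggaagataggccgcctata
Rps25: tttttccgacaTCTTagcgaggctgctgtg
Rps19bp1: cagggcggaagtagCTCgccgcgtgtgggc
The runs of the first 5 are between 7 and 10 bases, and that of *Rpl4* is 14 bases and begins before the window. Those of *Rpl10a* and *Rpl4* end before the annotated start, so they are not part of the mRNA annotated there. The runs of the last 6 are 1 to 4 bases, which says only that no longer run lies at the start that RefSeq annotates. A run of at least 6 bases was found in 30 of the 61 members with an entry (49.2%) and in 2097 of the 10498 tested genes with one (20.0%). These counts include runs that end before the start. Only 73.5% of the members had an entry, which is too few for a check over the members, so the comparison of these shares is void.

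A library held between 17005079 and 24181167 counts on genes. The 10 myotube markers summed to between 15109 and 20733 RPM in every library and 6 myoblast and cycling markers to between 131 and 274 RPM, so the libraries carried the markers of the labelled cells. The target of the LNA, *Tug1*, fell with the knockdown at Rest (log2FC -0.83, SE 0.171, FDR = 0.000915), at EPS 0h (log2FC -0.57, SE 0.169, FDR = 0.0178) and at EPS 3h (log2FC -0.51, SE 0.168, FDR = 0.0414). In the first set alone (log2FC -0.49 and -0.50) it did not pass at EPS 0h (FDR = 0.266) or EPS 3h (FDR = 0.227), and in the second set alone (log2FC -0.66 and -0.53) it did (FDR = 0.00657 and 0.0358). These and all further FDR values are from edgeR's quasi-likelihood test with Benjamini-Hochberg adjustment over the 13995 genes, and all RPM values are scaled by TMM factors, which align libraries on the bulk of genes.

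The 83 genes took from 2.49% to 4.46% of the counts on genes of a library, with a median of 3.41%. In Rest control myotubes the share was 3.59% ± 0.516 (SD, n = 6), from 2.98% to 4.23% with a median of 3.46%. In Rest *Tug1* KD myotubes it was 3.50% ± 0.589 (SD, n = 6), from 2.49% to 3.95%. It was 3.56% ± 0.249 in EPS 0h control, 3.11% ± 0.243 in EPS 0h *Tug1* KD, 3.69% ± 0.506 in EPS 3h control and 3.42% ± 0.444 in EPS 3h *Tug1* KD myotubes (SD, n = 6 each). At EPS 0h the highest *Tug1* KD library (3.33%) lay at the level of the lowest control library (3.33%), whereas the groups overlapped widely at Rest and at EPS 3h. Between libraries of the same number the share was lower in *Tug1* KD in 6 of 6 pairs at EPS 0h, by 0.00435 to 0.672 percentage points, and in 4 of 6 pairs at EPS 3h, with no test made.

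**Figure D1:**
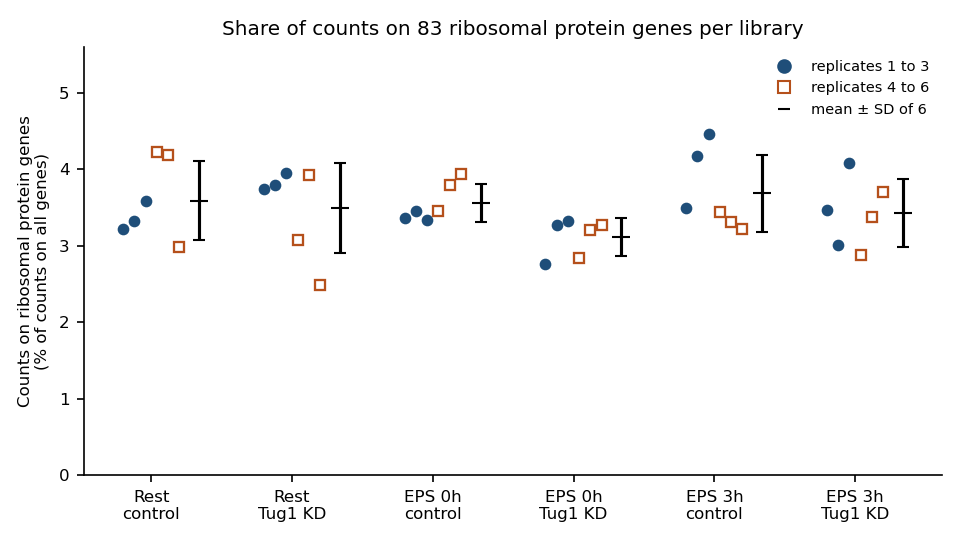
Percent of the counts on all genes that fall on the 83 ribosomal protein genes, by group, with 1 point per library; filled circles are replicates 1 to 3, open squares are replicates 4 to 6, and the bar is the mean ± SD of 6 libraries. Rest *Tug1* KD replicate 6 is the lowest library (2.49%) and EPS 3h control replicate 3 the highest (4.46%).

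The 2 sets of replicates did not place the groups in the same order. In the first set the share at Rest was 3.38% ± 0.189 in control and 3.83% ± 0.108 in *Tug1* KD myotubes (SD, n = 3), while in the second set it was 3.80% ± 0.706 and 3.16% ± 0.720 (SD, n = 3). The EPS 3h control libraries had 4.04% ± 0.493 in the first set and 3.33% ± 0.111 in the second set (SD, n = 3). In bulk RNA, fewer cells and less RNA per cell cannot be told apart. The results on the members are therefore also given for each set.

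Levels between genes are compared per kilobase of coding sequence, since the genes differ in length. *Rpl41*, which encodes a very short peptide of the large subunit, was highest at 9341 RPM per kb (coding length 75 nt). Without correction for length it was at 701 RPM. Counts are per gene and not on the coding sequence alone, so the level per kb favours genes with a short coding sequence. Other genes with high levels were *Rps12* (1975 RPM per kb), *Rplp1* (1906), *Rps14* (1631), *Rpl23* (1613) and *Rplp0* (1602), and the median of the 82 genes with a coding sequence was 859 RPM per kb. The highest levels not corrected for length were those of *Rplp0* (1523 RPM), *Rpl8* (1109 RPM) and *Rpsa* (1052 RPM). The lowest core genes per kb were *Rps10* (10.9), *Rpl13a* (20.0), *Rpl23a* (49.4) and *Rpl26* (55.8 RPM per kb), although the ribosome holds these proteins in about the same number as the others.

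The annotation shows overlaps with other genes at some of these loci. The coding sequences of *Rpl13a* and *Rps10* lie to 97.5% and 92.1% within exons of other genes on the same strand, *Gm45713* and *Gm49804*, which had 0 counts in all 36 libraries together, whereas those of *Rpl23a* and *Rpl26* have no such overlap. The same holds for *Rpl24* (83.4%, *Gm28037*) and *Rpl36al* (95.3%, *Gm49383*), which had mean levels of 0.538 and 0.709 RPM and did not pass the filter. Many ribosomal protein genes also have processed copies in the mouse genome: 309 annotated pseudogenes of these genes held between 0.0912% and 0.168% of the counts. In 25 of 82 members every 75-base window of the coding sequence occurred elsewhere in GRCm39, in 64 more than 50% of windows did, and in 3 none did, among them *Rps3* and *Rps19bp1*. Reads from such windows can be lost or split in counting, so the levels of these genes are uncertain, and the part of this in the low levels was not tested. The windows are shorter than the paired-end reads of the study and leave out the mRNA outside the coding sequence. A shared window therefore need not make a read pair ambiguous. Across the 82 genes the level per kb and the share of windows found elsewhere had a Spearman's rho of 0.03, given as a description.

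**Figure D2:**
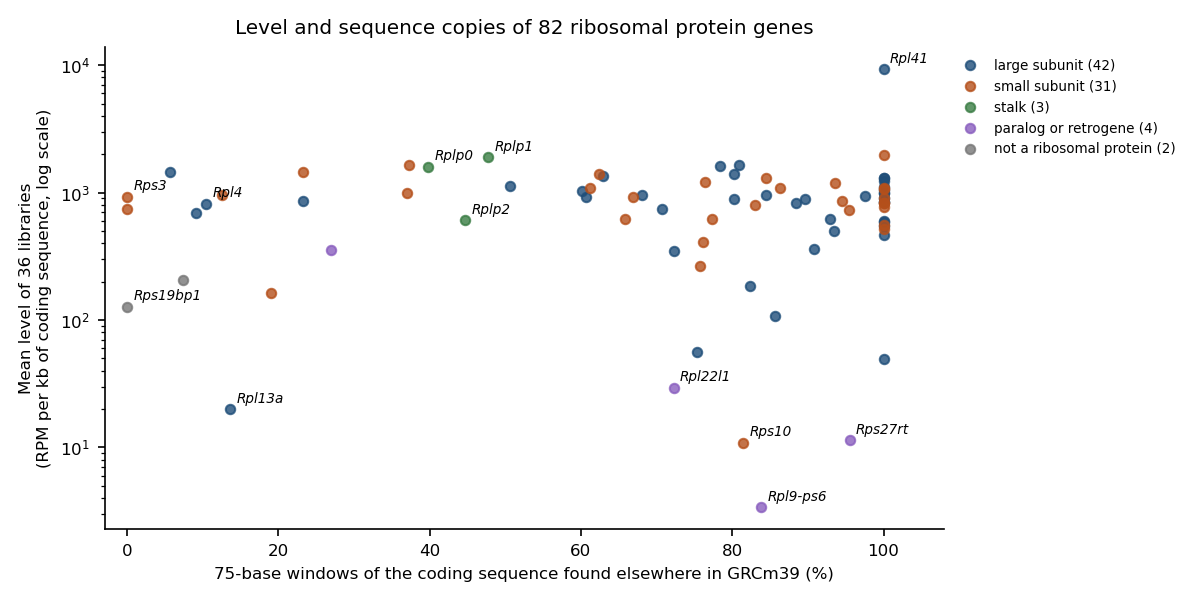
Mean level over 36 libraries in RPM per kb of coding sequence (log scale) against the percent of 75-base windows of the coding sequence found elsewhere in GRCm39, with 1 point per gene coloured by role. *Rpl41*, with a coding length of only 75 nt, lies highest (9341 RPM per kb), and *Rps10* (10.9), *Rpl13a* (20.0) and *Rpl9-ps6* (3.40) lie among the lowest. Levels near 1000 RPM per kb occur from 0% to 100% of windows.

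The genes varied together between libraries of the same group. After centring the log2 levels within groups, the median correlation of a pair of members over the 36 libraries was 0.59, against 0.004 for a pair among all genes tested. The correlation of a member with the median of the others had a median of 0.76 and was over 0.5 in 74 of the 83 genes. It was lowest for *Rps10* (-0.11), *Rpl28* (0.27), *Rpl7l1* (0.29) and *Rpl9-ps6* (0.37). Genes are not independent replicates, and pairs share libraries, depth and scaling. The short *Rpl35* had the widest spread within groups, an SD of 0.97 on the log2 scale, with 68.3 to 117 RPM in the first set and 16.1 to 46.3 RPM in the second set of Rest control myotubes. *Rpl4* had the narrowest, an SD of 0.13.

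Whether *Tug1* KD changes these genes was asked at Rest, EPS 0h and EPS 3h. At Rest no member passed an FDR under 0.05, while 5.54% of all genes tested were higher and 4.47% lower. The 6 myoblast and cycling markers summed to 220 to 274 RPM in control and 178 to 208 RPM in *Tug1* KD myotubes. The median log2FC of the 83 genes was 0.00, with 40 genes above and 43 below 0, against -0.03 over all genes, and 1 gene higher and 1 lower had an unadjusted p under 0.05. DESeq2 and limma-voom also called 0 genes. The largest differences were those of *Rpl9-ps6* (log2FC 0.29) and *Rps27rt* (-0.28), which are low and did not pass the test. The median SE of a member's log2FC was 0.151.

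Under this median of 0 the sets differed in direction. In the first set alone 76 of 83 genes lay above 0 with a median log2FC of 0.19, and 2 were called higher (3.29% of all genes). In the second set alone 76 lay below 0 with a median of -0.23, and 1 was called lower (6.9% of all genes). The difference of the sets had a median of -0.42 and an unadjusted p under 0.05 in 34 members, but an FDR under 0.05 in 0 of them and in 0.0% of all genes. The share of all genes at the unadjusted threshold is not given, so the 34 cannot be read as particular to the members. The same libraries gave *Tug1* a log2FC of -0.94 and -0.71 in the 2 sets, the same direction.

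At EPS 0h, 81 of 83 genes lay below 0 in *Tug1* KD against control myotubes, with a median log2FC of -0.16 where all genes had 0.00. *Rpl10a* alone passed the test as a lower gene and 0 were higher (unadjusted p under 0.05 in 1 higher gene, and 0 by DESeq2 and limma-voom), while 6.07% of all genes tested were called lower and 8.25% higher. *Rpl10a* (ENSMUSG00000037805, chromosome 17, 28547144 to 28550008 in GRCm39, plus strand) encodes a protein of the large subunit. It ranged from 549 to 701 RPM in EPS 0h control myotubes (median 597) and from 435 to 567 RPM in *Tug1* KD myotubes (median 487). Every *Tug1* KD library was under the mean of the controls, and the ranges overlapped. The log2FC was -0.31 (SE 0.109, FDR = 0.0466), -0.26 in the first set and -0.35 in the second set. The FDR without 1 library rose to as much as 0.127 (without EPS 0h control replicate 6), and the call was lost in 12 of 36 such fits. All windows of its coding sequence occur elsewhere in the genome. The direction of the members was the same in both sets, with medians of -0.10 and -0.23, and 0 members were called lower in either set alone, where 2.53% and 6.44% of all genes were (unadjusted p under 0.05 in 0 and 4 members).

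At EPS 3h, 67 of 83 genes lay below 0, with a median log2FC of -0.08 against -0.01 over all genes. *Rpl3* alone passed the test, while 5.11% of all genes were called lower and 6.38% higher. *Rpl3* (ENSMUSG00000060036, chromosome 15, 79961825 to 79976069, minus strand), whose product reaches towards the site of peptide bond formation, ranged from 645 to 919 RPM in control (median 692) and from 523 to 654 RPM in *Tug1* KD myotubes (median 608). The ranges met at their edges, with every *Tug1* KD library under the mean of the controls. The log2FC was -0.30 (SE 0.0991, FDR = 0.0438), -0.42 in the first set and -0.16 in the second set, and the call was lost in 6 of 36 fits without 1 library, with an FDR of up to 0.153 without EPS 3h control replicate 2. With the replicate number as a block 1 member was also called higher, where 10.8% of all genes were. The median over the members was -0.21 in the first set, with 2 called lower (2.25% of all genes), and 0.07 in the second set, with 1 called higher (6.15%). *Rpl3* and *Rpl10a* lay on the same side in the other states, *Rpl3* at -0.15 at Rest and -0.24 at EPS 0h and *Rpl10a* at -0.25 at Rest and -0.21 at EPS 3h, without passing the test.

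**Figure D3:**
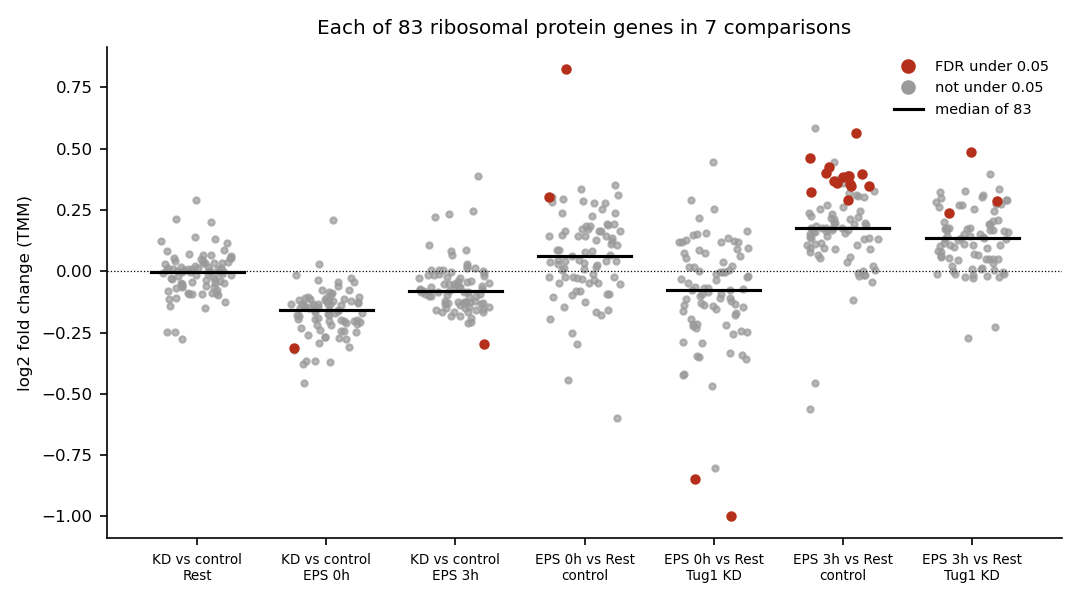
Log2FC of each of the 83 genes in 7 comparisons, with red points for an FDR under 0.05 and a black line at the median of the 83. The medians are 0.00, -0.16 and -0.08 for *Tug1* KD at Rest, EPS 0h and EPS 3h, 0.06 and -0.08 for EPS 0h in control and *Tug1* KD myotubes, and 0.18 and 0.14 for EPS 3h in control and *Tug1* KD myotubes.

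At EPS 0h in control myotubes the members called against Rest were *Rps19bp1* and *Rpl9-ps6*, neither of which is a core gene of the subunits. The median log2FC was 0.06, with 55 genes above 0, against -0.03 over all genes, and was 0.09 in the first set and 0.02 in the second set. These 2 genes were called higher and none lower (unadjusted p under 0.05 in 0 lower genes, and 0 by DESeq2 and limma-voom), while 20.5% of all genes were called higher and 18.4% lower. *Rps19bp1*, which encodes a binding partner of RPS19, ranged from 40.7 to 53.6 RPM at Rest (median 48.4) and from 55.2 to 63.3 RPM at EPS 0h (median 59.5), without overlap. Its log2FC was 0.30 (SE 0.11, FDR = 0.0269), 0.25 in the first set and 0.36 in the second set, with an FDR of 0.0841 when libraries were scaled by their size alone and of up to 0.0721 without 1 library (Rest control replicate 6). *Rpl9-ps6*, a retrogene, had 0.831 to 2.27 RPM at Rest and 1.27 to 3.66 RPM at EPS 0h, and its log2FC of 0.82 (SE 0.325, FDR = 0.0426) was 1.75 in the first set and -0.03 in the second set. The first set alone called 24 members higher and 2 lower, where 20.8% and 20.1% of all genes were, and the second set alone called 1 higher (16.1%).

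At EPS 3h, 15 members were higher than at Rest in control myotubes and none was lower (unadjusted p under 0.05 in 0 lower genes, and 0 by DESeq2 and limma-voom), while 26.1% of all genes tested were called higher and 25.9% lower. The share of members called higher was thus below that of all genes. The median log2FC was 0.18 with 75 of 83 genes above 0, against -0.02 over all genes. The called genes rose by 1.22-fold to 1.48-fold. Among them were the small subunit genes *Rps6*, *Rps12*, *Rps13*, *Rps15a*, *Rps25*, *Rps26* and *Rps27a*, 6 large subunit genes (*Rpl3*, *Rpl4*, *Rpl5*, *Rpl7*, *Rpl10* and *Rpl17*) and *Rps19bp1*. The median log2FC was 0.20 over the 31 small subunit genes and 0.18 over the 42 large subunit genes. The 6 myoblast and cycling markers moved at the same time: they summed to 220 to 274 RPM in Rest control and to 136 to 183 RPM in EPS 3h control myotubes, with 1 called higher, 3 lower and none at 0. The 10 myotube markers summed to 15274 to 19206 RPM at Rest and 15773 to 20733 RPM at EPS 3h. The part of these cells in the members' rise was not tested.

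*Rps15a* (ENSMUSG00000008683, chromosome 7, 117703595 to 117715454, minus strand), a small subunit gene with a run of 9 pyrimidines at the start shown above, had the largest rise among the called genes. It ranged from 144 to 256 RPM at Rest (median 193) and from 206 to 452 RPM at EPS 3h (median 281), and the groups overlapped. The log2FC was 0.56 (SE 0.184, FDR = 0.0103). In the first set the levels were 180, 192 and 194 RPM at Rest and 346, 452 and 332 RPM at EPS 3h, a log2FC of 1.01. In the second set they were 256, 237 and 144 RPM at Rest and 229, 206 and 212 RPM at EPS 3h, a log2FC of 0.03. At EPS 3h all 3 libraries of the first set were above every Rest control library, whereas the second set overlapped Rest, and the FDR was 0.062 without EPS 3h control replicate 2.

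*Rps6* (ENSMUSG00000028495, chromosome 4, 86748406 to 86775674, minus strand) encodes the small subunit protein that the S6 kinases phosphorylate downstream of mTORC1. It ranged from 422 to 628 RPM at Rest (median 461) and from 489 to 997 RPM at EPS 3h (median 653). The log2FC was 0.46 (SE 0.156, FDR = 0.0127), 0.92 in the first set and -0.04 in the second set, and the FDR was 0.074 without EPS 3h control replicate 2. The difference between the sets was -0.94 on the log2 scale (FDR = 0.0301). *Rps12* followed with a log2FC of 0.43 (SE 0.155, FDR = 0.0207), 0.84 and -0.06 in the 2 sets, and *Rps27a*, which encodes ubiquitin fused to a small subunit protein, with 0.40 (SE 0.161, FDR = 0.0364), 0.80 and -0.05. Both calls were lost without EPS 3h control replicate 2 (FDR = 0.0914 and 0.151).

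*Rpl4* (ENSMUSG00000032399, chromosome 9, 64080618 to 64086351, plus strand), whose product lines the exit tunnel of the large subunit, was the 1 called member whose groups did not overlap. The share of all genes without overlap is not given, so this count cannot be read as particular to the members. *Rpl4* ranged from 814 to 1079 RPM at Rest (median 896) and from 1104 to 1366 RPM at EPS 3h (median 1181). The log2FC was 0.39 (SE 0.0831, FDR = 0.000175), 0.61 in the first set and 0.19 in the second set. It was also the 1 member called when libraries were scaled by their size alone (FDR = 0.0152), it was called in all 36 fits without 1 library, and 10.5% of its coding windows occur elsewhere.

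**Figure D4:**
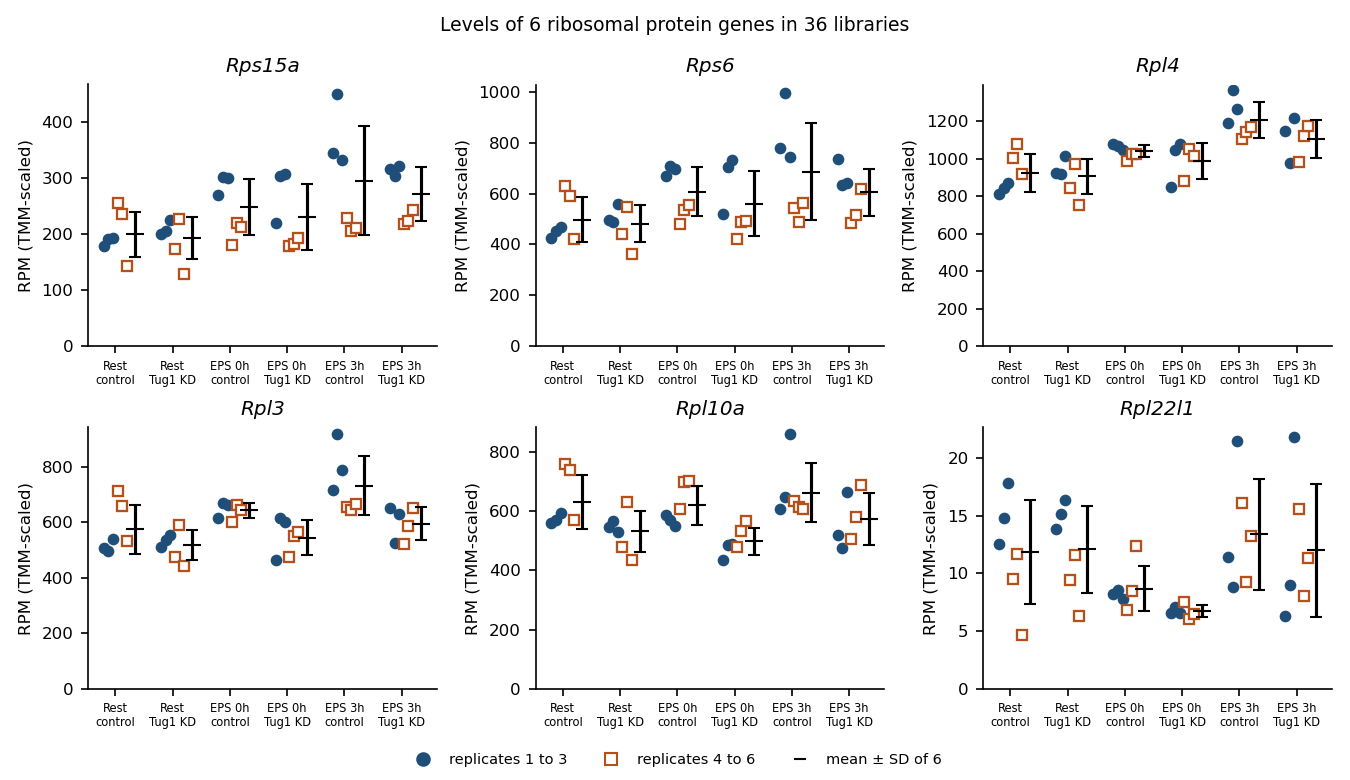
RPM of 6 ribosomal protein genes in all 36 libraries, scaled by TMM factors; filled circles are replicates 1 to 3, open squares are replicates 4 to 6, and the bar is the mean ± SD of 6 libraries. *Rps15a* and *Rps6* rise at EPS 3h in the circles of control myotubes but not in the squares, *Rpl4* lies above every Rest control library in EPS 3h control myotubes, and *Rpl22l1* is lowest in EPS 0h *Tug1* KD myotubes (6.09 to 7.49 RPM).

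Over the members the contrast of the sets was the same. The first set alone called 51 genes higher and 1 lower with a median log2FC of 0.46, and the second set alone called 0 in either direction (unadjusted p under 0.05 in 1 higher and 0 lower genes) with a median of -0.06 and 61 genes below 0. Of all genes the first set called 25.3% higher and 23.6% lower, and the second set 25.1% higher and 23.6% lower. All 15 called genes passed the test in the first set, none did in the second, and 7 lay below 0 there. The difference between the sets had a median of -0.51 and an FDR under 0.05 in 2 members, *Rps6* and *Rpl10* (-0.85, FDR = 0.0407), while 0.336% of all genes passed that test. With the replicate number as a block, 21 members were called higher, among them all 15, where 29.6% of all genes were.

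The count also depended on the scaling, the libraries and GC content. With scaling by library size only, 1 member was called higher (19.1% of all genes) and the median log2FC was 0.01, while the median of all genes shifted by -0.17. Relative to the median of all genes, the members lay higher by 0.20 under both scalings. Each scaling applies the same factor to all genes of a library, so this match follows from the method and is no second check. Without EPS 3h control replicate 2 the count was 6, and the share of all genes in that fit is not given. When counts were also adjusted for GC content, 19 members were called higher (26.3% of all genes), of which 7 were among the 15. *Rps15a* (FDR = 0.152) and *Rps12* (FDR = 0.0741) were then not called, and *Rpl4* (FDR = 0.00366) and *Rps6* (FDR = 0.0327) were. Across genes the log2FC had a Spearman's rho with GC content of -0.36 over 82 members and -0.36 over 12523 genes.

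**Figure D5:**
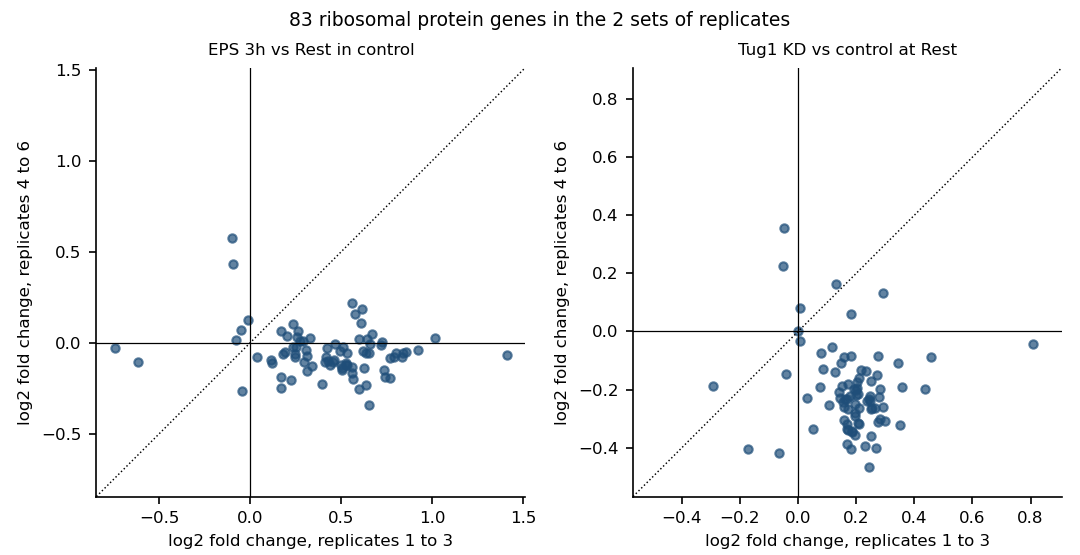
Log2FC of each of the 83 genes in the second set (replicates 4 to 6, vertical axis) against that in the first set (replicates 1 to 3, horizontal axis), for EPS 3h against Rest in control myotubes (left) and *Tug1* KD against control at Rest (right), with a dotted line where both are equal. On the left most points lie right of 0 and near 0 on the vertical axis (medians 0.46 and -0.06), and on the right most lie right of and below 0 (medians 0.19 and -0.23).

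At EPS 0h in *Tug1* KD myotubes the median log2FC was -0.08, with 56 of 83 genes below 0, against a median of -0.03 over all genes. The median was -0.12 in the first set and 0.05 in the second set. *Rps29* and *Rpl22l1* were called lower and 0 genes higher (unadjusted p under 0.05 in 0 higher genes, and 0 by DESeq2 and limma-voom), while 21.2% of all genes were called lower and 24.4% higher. *Rps29* (ENSMUSG00000034892, chromosome 12, 69204495 to 69205960, minus strand), a short gene for a zinc-binding protein of the small subunit, ranged from 49.2 to 168 RPM at Rest (median 131) and from 42.2 to 73.2 RPM at EPS 0h (median 61.9). All 6 libraries lay under the Rest mean, and Rest replicate 6 overlapped them. The log2FC was -0.998 (SE 0.329, FDR = 0.0132), -1.25 and -0.59 in the 2 sets. With an adjustment for GC content the FDR was 0.0649. In control myotubes the log2FC of *Rps29* was -0.60, which did not pass the test.

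*Rpl22l1* (ENSMUSG00000039221, chromosome 3, 28859585 to 28861573, plus strand), the paralog of *Rpl22*, ranged from 6.34 to 16.3 RPM at Rest (median 12.7) and from 6.09 to 7.49 RPM at EPS 0h (median 6.56). The log2FC was -0.85 (SE 0.269, FDR = 0.0101), -1.15 and -0.45 in the 2 sets, and the second set alone did not pass the test (FDR = 0.314). In control myotubes the log2FC was -0.45 (FDR = 0.187). *Rpl22* itself, expressed at 264 RPM on average over the 36 libraries, had a log2FC of -0.08 in *Tug1* KD myotubes (FDR = 0.62). Both *Rps29* and *Rpl22l1* were called in all 36 fits without 1 library. With the replicate number as a block 11 members were called lower (29.0% of all genes), and 11 with scaling by library size only (29.7%). Without Rest *Tug1* KD replicate 6 the count was 9, without EPS 0h *Tug1* KD replicate 6 it was 8, without Rest *Tug1* KD replicate 4 it was 6, without EPS 3h control replicate 3 it was 5 and without EPS 3h *Tug1* KD replicate 3 it was 4. For these fits without 1 library the share of all genes is not given, so their counts cannot be read as particular to the members. The first set alone called 4 higher and 23 lower, where 27.7% and 26.5% of all genes were. The second set alone called 0, where 15.9% and 12.6% of all genes were (unadjusted p under 0.05 in 0 members). Of the 10 myotube markers 2 were called higher and 6 lower in the first set, the median of the markers was -0.30 in the first set and 0.09 in the second, and their part in these counts was not tested. In 6.46% of all genes, and in 2 members, *Rpl28* and *Rpl13*, the sets differed in this comparison.

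At EPS 3h in *Tug1* KD myotubes, *Rps15a*, *Rpl4* and *Rps13* were called higher and none lower (unadjusted p under 0.05 in 0 lower genes, and 0 by DESeq2 and limma-voom), while 26.2% of all genes were called higher and 25.9% lower. The median log2FC was 0.14 with 72 genes above 0, against -0.04 over all genes. *Rps15a* ranged from 130 to 228 RPM at Rest (median 203) and from 219 to 323 RPM at EPS 3h (median 274), with a log2FC of 0.49 (SE 0.184, FDR = 0.0254), 0.60 and 0.37 in the 2 sets. *Rpl4* ranged from 756 to 1016 RPM at Rest and from 975 to 1217 RPM at EPS 3h, with a log2FC of 0.29 (SE 0.083, FDR = 0.00419), 0.24 and 0.35 in the 2 sets. *Rps13* was at the threshold, with a log2FC of 0.24 (SE 0.101, FDR = 0.0499), 0.13 and 0.38 in the 2 sets, and its call was lost in 26 of 36 fits without 1 library.

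The median log2FC was 0.05 in the first set, with 52 genes above 0 and 11 called higher (27.3% of all genes), and 0.25 in the second set, with 82 above 0 and 6 called higher (22.0%). DESeq2 called 8 members, limma-voom 4, a fit with the 2 sets as a block 12 (28.8% of all genes) and one adjusted for GC content 15 (27.1% of all genes). For DESeq2, limma-voom and the fits without 1 library below, the share of all genes is not given. Their counts cannot be read as particular to the members. Scaling by library size only called 0 (20.0% of all genes) with a median of -0.03 while the median of all genes moved by -0.16. Relative to that median the members were higher by 0.18 under both scalings, a match that again follows from the method. The count was 8 without EPS 3h *Tug1* KD replicate 4 or Rest *Tug1* KD replicate 5, 6 without Rest *Tug1* KD replicate 3, 5 without EPS 3h control replicate 2, and 1 without EPS 3h *Tug1* KD replicate 3, Rest *Tug1* KD replicate 4 or Rest *Tug1* KD replicate 6.

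Whether the response to EPS differed with *Tug1* KD was tested by the interaction. No member passed at EPS 0h or at EPS 3h, with an unadjusted p under 0.05 in 0 members at each time and 0 called by DESeq2 and limma-voom, and 0.0% and 0.00715% of all genes passed. The median interaction was -0.16 at EPS 0h, with 81 genes below 0, and -0.07 at EPS 3h, with 66 below 0. At EPS 0h it was -0.30 in the first set, with 4 members at an unadjusted p under 0.05, and 0.03 in the second set. At EPS 3h it was -0.41 in the first set, with 40 members at an unadjusted p under 0.05, and 0.31 in the second set. The share of all genes at that unadjusted threshold is not given, so these counts cannot be read as particular to the members. The comparisons with Rest and those of *Tug1* KD share libraries, so their values are not independent of each other.

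The members with special roles were followed by name. The stalk genes *Rplp0*, *Rplp1* and *Rplp2*, which recruit the translation factors, had a log2FC at EPS 3h in control myotubes of 0.25, -0.01 and 0.16 (FDR = 0.154, 0.979 and 0.412), and none passed the test in any of the 7 comparisons. *Rpl5* and *Rpl11* enter the large subunit together and bind MDM2 when ribosome assembly is disturbed. *Rpl5* rose at EPS 3h in control myotubes from 465 ± 45.7 to 596 ± 91.3 RPM (SD, n = 6; log2FC 0.36, SE 0.107, FDR = 0.00512), 0.61 and 0.11 in the 2 sets, while *Rpl11* had 471 ± 51.7 and 489 ± 84.6 RPM (log2FC 0.06, FDR = 0.747). Whether the 2 genes differ from each other was not tested. *Rps27l*, a paralog of *Rps27* known as a p53 target, had a log2FC between -0.07 and 0.24 in the 7 comparisons, none past the test, and *Rpl7l1* between -0.02 and 0.24. Among the parents of paralogs, *Rpl3*, *Rpl7* and *Rpl10* were called higher at EPS 3h in control myotubes, and *Rpl22*, *Rpl36a*, *Rpl39*, *Rps27* and *Rps4x* had log2FCs from 0.16 to 0.38 without passing.

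Genes that make and regulate ribosomes were read from lists chosen with earlier results known. Of 81 ribosome biogenesis genes, 41 were higher and 3 lower at EPS 3h in control myotubes (median log2FC 0.26), and 30 higher and 6 lower in *Tug1* KD myotubes (median 0.16), where 26.1% and 25.9% of all genes were called higher and lower in control and 26.2% and 25.9% in *Tug1* KD myotubes. With scaling by library size only, 31 were higher and 9 lower in control myotubes (median 0.09). In *Tug1* KD myotubes 19 were then higher and 16 lower (median -0.01). Of all genes, 19.1% were called higher and 39.5% lower in control, and 20.0% and 40.5% in *Tug1* KD myotubes. In control myotubes the sets gave 39 higher and 2 lower, and 39 higher and 6 lower, with medians of 0.29 and 0.28, and in *Tug1* KD myotubes the medians were 0.04 and 0.29. *Nop58*, a core protein of the box C/D particles that guide rRNA methylation, went from 97.9 ± 21.1 to 205 ± 46.7 RPM (SD, n = 6; log2FC 1.07, SE 0.152, FDR = 3.25e-07), with 1.04 and 1.13 in the 2 sets. *Gtpbp4*, a GTPase of large subunit assembly, went from 97.2 ± 11.1 to 213 ± 37.9 RPM (log2FC 1.13, SE 0.101, FDR = 1.37e-11), 1.21 and 1.05 in the 2 sets. *Mdn1*, an ATPase of large subunit maturation, went from 65.5 ± 15.6 to 137 ± 36.5 RPM (log2FC 1.07, SE 0.173, FDR = 3.18e-06), 0.98 and 1.20 in the 2 sets. At EPS 0h 17 were higher and 4 lower in control myotubes (20.5% and 18.4% of all genes), with *Nat10*, which acetylates rRNA, falling (log2FC -0.73, SE 0.0948, FDR = 1.55e-07; -0.86 and -0.62 in the 2 sets).

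Of 16 genes for RNA polymerase I and its factors, which transcribe rRNA, 5 were higher and 0 lower at EPS 3h in control myotubes (26.1% and 25.9% of all genes). With scaling by library size only, 3 were higher and 2 lower, where 19.1% and 39.5% of all genes were. *Taf1d*, a subunit of the polymerase's promoter factor, had the largest rise (log2FC 1.17, SE 0.145, FDR = 2.27e-08), 1.04 and 1.34 in the 2 sets. *Polr1f* followed (log2FC 0.80, SE 0.0924, FDR = 4.68e-09), 0.89 and 0.73. In *Tug1* KD against control myotubes *Polr1a*, the largest polymerase subunit, was higher at Rest (log2FC 0.41, FDR = 0.00226), EPS 0h (log2FC 0.47, FDR = 0.00031) and EPS 3h (log2FC 0.44, FDR = 0.000835), and *Polr1c* lower at Rest (log2FC -0.39, FDR = 0.0222), EPS 0h (log2FC -0.56, FDR = 0.000585) and EPS 3h (log2FC -0.49, FDR = 0.00358). Of the 16 genes 1 was higher and 1 lower at Rest (5.54% and 4.47% of all genes). At EPS 0h 1 was higher and 1 lower (8.25% and 6.07%), and at EPS 3h 1 and 3 (6.38% and 5.11%). The first set alone called 0 at Rest, 1 higher and 1 lower at EPS 0h, and 0 higher and 2 lower at EPS 3h. The second set alone called 1 higher and 1 lower at Rest and at EPS 0h, and 1 higher and 2 lower at EPS 3h.

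Of 18 translation factors and other genes with a TOP motif, 8 were higher and 0 lower at EPS 3h in control myotubes (26.1% and 25.9% of all genes), with *Eif3e* (log2FC 0.66, SE 0.135, FDR = 0.000113), *Tpt1* (log2FC 0.44, SE 0.11, FDR = 0.00106) and *Eif3h* (log2FC 0.41, SE 0.0949, FDR = 0.000451) first, and 6 were higher in *Tug1* KD myotubes (26.2%). With scaling by library size only, 4 were higher and 1 lower in control and 0 higher and 1 lower in *Tug1* KD myotubes. Of all genes, 19.1% were then called higher and 39.5% lower in control, and 20.0% and 40.5% in *Tug1* KD myotubes. Their medians in the 2 sets of control libraries were 0.35 and 0.09. Of the ribosome genes that the symbols miss, *Fau* (log2FC 0.24, FDR = 0.129) and *Rack1* (log2FC 0.19, FDR = 0.195) did not pass the test there.

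Of 28 regulators of mTORC1 and of TOP mRNAs, 7 were higher and 9 lower at EPS 3h in control myotubes, near the shares of all genes (26.1% and 25.9%). With scaling by library size only, 4 were higher and 14 lower, where 19.1% and 39.5% of all genes were. *Eif4e*, the cap-binding factor, rose (log2FC 1.07, SE 0.124, FDR = 5.05e-09), 1.31 and 0.81 in the 2 sets, and *Eef2k*, the kinase that restrains elongation, fell (log2FC -1.52, SE 0.199, FDR = 5.88e-08), -1.70 and -1.40. In *Tug1* KD against control myotubes at Rest, *Rptor*, the defining subunit of mTORC1 (log2FC 0.57, SE 0.0962, FDR = 6.42e-05), its inhibitor *Deptor* (log2FC 0.44, SE 0.126, FDR = 0.0183) and *Tsc1* (log2FC 0.34, SE 0.0788, FDR = 0.00333) were among 4 genes higher (5.54% of all genes), and 0 were lower. In the 2 sets *Rptor* was at 0.45 and 0.69, *Deptor* at 0.12 and 0.77 and *Tsc1* at 0.20 and 0.47.

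The mitochondrial ribosome has its own 77 nuclear-encoded proteins in the table. At EPS 0h in *Tug1* KD myotubes 4 of them were higher and 20 lower with a median log2FC of -0.19 (24.4% and 21.2% of all genes), and at EPS 3h 6 were higher and 20 lower with a median of -0.14 (26.2% and 25.9% of all genes), where the cytosolic members had medians of -0.08 and 0.14. In control myotubes at EPS 3h 5 were higher and 7 lower, with a median of -0.05 (26.1% and 25.9% of all genes). In *Tug1* KD myotubes the first set gave them a median of -0.27 (EPS 0h) and -0.25 (EPS 3h), the second set one of -0.02 and 0.01. The difference between these groups of genes was not tested.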

How the data were processed

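The authors' values are whole-number counts per gene without normalization. Per the labels and the study's methods, poly-A RNA was made into stranded libraries, reads were checked with FastQC 0.11.7, trimmed with fastp 0.14.1 and aligned with STAR 2.5 to GRCm39, and these counts were deposited. How reads were assigned to genes, and on which strand, is not given in the sources used here, which matters for overlapping genes and for genes with many copies. Rows without a gene name held 0.0327% of counts.

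The 13995 genes that reached 1 RPM in 12 or more of the 36 libraries were scaled by TMM and fitted over all 6 groups in edgeR 4.0.16 (R 4.3.3), quasi-likelihood with robust dispersion. SE is the log2FC divided by the square root of F. Calls used an FDR under 0.05. Alternatives were DESeq2 1.42.0, limma-voom (limma 3.58.1), library size scaling, TMM factors without the members, no filter, replicate or experiment blocks, and each set of replicates alone. GC offsets, fits without 1 library and the test of the difference between sets were chosen after seeing the data. The fits were tested on simulated data. The members, lists and tests were chosen with earlier results of these data known. The genes named are the 4 largest rises and falls with a mean of at least 5 RPM among members past the threshold in the *Tug1* comparisons and in EPS against Rest in control myotubes, the 3 highest members, the stalk, paralogs and their parents, members that are not ribosomal proteins or fail the filter, and up to 3 genes per list. Other members named were chosen after their values were seen, and some members are not reported here by name.

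Libraries of a group differed by more than counting error (chi-square per degree of freedom at least 4.42). Replicate numbers were taken as pairs where every pair of libraries correlated over 0.1 after centring within groups. This held for *Tug1* KD at EPS 0h (lowest 0.57) and EPS 3h (0.21), in control myotubes for EPS 0h (0.23) and EPS 3h (0.12), and for EPS 0h in *Tug1* KD myotubes (0.16), but not for *Tug1* KD at Rest (-0.08) or EPS 3h in *Tug1* KD myotubes (0.08). The centring left the difference between the sets in place, and libraries of different numbers were not compared. The criterion therefore cannot tell pairs of wells from the difference between the sets. Coding sequences came from the GENCODE annotation of GRCm39.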

Additional observations from a re-analysis of the deposited data

Results flagged for a closer look

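Of 204 tests of a group of 6 libraries for an outlier, 9 found 1 library far from the other 5, and chance alone flags about 1 in 20. EPS 3h control replicate 3 stood high for *Rpl10a* (861 RPM), *Rpl11* (654 RPM), *Rpl8* (1689 RPM) and *Rplp2* (357 RPM), and EPS 3h control replicate 2 for *Rpl17* (961 RPM). EPS 3h *Tug1* KD replicate 3 stood high for *Rplp2* (304 RPM). *Rpl22l1* was high in EPS 0h control replicate 6 (12.4 RPM), *Rpl7* low in EPS 0h control replicate 4 (684 RPM) and *Rpl9-ps6* high in Rest *Tug1* KD replicate 5 (3.02 RPM).

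The change differed between the 2 sets of replicates, by a test of the difference itself, in 4 cases. At EPS 3h in control myotubes replicates 4 to 6 minus replicates 1 to 3 gave -0.85 for *Rpl10* and -0.94 for *Rps6* on the log2 scale. At EPS 0h in *Tug1* KD myotubes the difference was 1.30 for *Rpl28* and 1.01 for *Rpl13*. The same test passed in 0.336% and 6.46% of all genes in these 2 comparisons.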

How the results depend on the processing

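DESeq2, limma-voom and TMM factors without the members moved no count of members called by over 1.5 times, except that DESeq2 called 8 members higher at EPS 3h in *Tug1* KD myotubes. Of the counts of members, the group shares and the *Tug1* value computed under alternatives, 771 stayed within that limit, the spread or the call and 92 did not. Of the log2FCs of single genes and the medians of the members, 248 kept their call or stayed within the spread between libraries, 75 lost their call and 7 reversed. The cause of these changes was not tested. Where the share of all genes called is given for a fit, it stands with the results above. For other fits it is not given, among them those without the filter, with GC offsets and the replicate block, and without 1 library. Without that share, a change in a count above or below cannot be read as particular to the members.

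For *Tug1* KD at Rest the first set (replicates 1 to 3 alone) gave 2 higher, and the second set (replicates 4 to 6 alone) and GC offsets with the replicate block each gave 1 lower. At EPS 0h *Tug1* KD gave 2 lower with library size scaling, GC offsets, or GC offsets with the replicate block, and 0 without the filter or in either set alone. At EPS 3h *Tug1* KD gave 1 higher with the replicate block, GC offsets with it, or the second set, 2 lower in the first set, and 0 lower in the second set or without the filter. Without 1 library these counts ranged from 0 to 1.

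For EPS 0h in control myotubes 0 were higher with library size scaling or no filter, 9 with GC offsets and the replicate block, 24 in the first set and 1 in the second, and 2 were lower in the first set. Without 1 library 0 to 3 were higher and 0 to 1 lower. For EPS 3h in control myotubes 1 was higher with library size scaling, 3 without the filter, 51 in the first set, 0 in the second and 26 with GC offsets and the replicate block, and 1 was lower in the first set. Without 1 library 6 to 22 were higher and 0 to 1 lower.

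For EPS 0h in *Tug1* KD myotubes 4 were higher in the first set, 1 with GC offsets and 4 with GC offsets and the replicate block. Lower were 11 with library size scaling, 4 without the filter, 11 with the replicate block, 7 with the experiment block, 23 in the first set, 0 in the second, 4 with GC offsets and 10 with GC offsets and the replicate block, and 2 to 9 without 1 library. For EPS 3h in *Tug1* KD myotubes 0 were higher with library size scaling or no filter, and 17 with the replicate block. The criterion for pairs was not met in this comparison. Higher were also 12 with the experiment block, 11 in the first set, 6 in the second and 15 with GC offsets. With GC offsets and the replicate block the count was 19, and without 1 library it was 1 to 8.

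The log2FC turned below 0 in the second set alone for *Rpl9-ps6* at EPS 0h in control myotubes (-0.026), and at EPS 3h in control myotubes for genes that included *Rpl7* (-0.055), *Rpl10* (-0.077), *Rps6* (-0.040), *Rps12* (-0.058), *Rps27a* (-0.054) and *Rpl17* (-0.015). Intervals and calls cover 6 wells a group, and levels of genes with many copies are limited by how reads were assigned.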
